A study of Mus musculus with 4 samples.

Results

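The scavenger receptor genes were 10 genes chosen by name, Msr1, Marco, Colec12, Cd36, Scarb1, Scarb2, Cd68, Olr1, Mrc1 and Stab1, among 24422 named genes in the deposited counts. For each gene the RefSeq transcript with the highest mean raw count was kept. The study asked what the long noncoding RNA Dnm3os, which its title links to diabetes, does in macrophages. All cells were RAW 264.7, a mouse macrophage line, used between passage 3 and passage 6 in DMEM holding 5.5 mmol/L glucose. There were 2 libraries of cells with stable Dnm3os expression and 2 of cells with empty vector, the plasmid pcDNA 3.1(+) without an insert. The labels do not state if the stable cells were clones or pools, nor if libraries within a group were separate cultures, so p-values measure only the spread between these libraries, which may be technical.

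Scavenger receptors are membrane proteins of several unrelated structural classes that share a broad taste for polyanionic ligands. Macrophages use them to take up oxidised and acetylated lipoproteins, bacteria, dead cells and matrix fragments, and unlike the LDL receptor several of them are not shut down as cholesterol builds up, which is how macrophages become foam cells. The classes compared here were class A (Msr1, Marco, Colec12), class B (Cd36, Scarb1, Scarb2), class D (Cd68), the lectin-type receptors (Olr1, Mrc1) and class H (Stab1).

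Each library held 48480628 to 65610942 counts summed over transcripts. With 1 transcript per gene the totals ranged from 29416272 to 39769640, and levels are given as CPM, counts scaled to a common library total, after TMM scaling. Dnm3os itself had 208 and 260 counts in the Dnm3os libraries, against 0 and 0 in the empty vector libraries. Of 10 macrophage markers, 9 passed the filter on low counts and Mertk had at most 1 count in any library. The macrophage markers summed to 10867 and 10368 CPM in the Dnm3os libraries, against 9571 and 9423 CPM in the empty vector libraries. Of 5 fibroblast markers, none passed the filter, and 3 (Col1a2, Col3a1 and Pdgfra) had 0 counts in all libraries.

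In cells expressing Dnm3os, Msr1, Cd36 and the low-level receptor Stab1 were higher, and the HDL receptor Scarb1 and the endosomal glycoprotein Cd68 were lower. All of these differences except that of Stab1 were under 1.2-fold. Of the 9 genes that passed the filter on low counts, 3 rose (Msr1, Cd36 and Stab1), 2 fell (Scarb1 and Cd68) and 4 missed the threshold, an adjusted p under 0.05. The p-values are two-sided, come from edgeR's quasi-likelihood test and are adjusted over 13172 genes by Benjamini-Hochberg. Over all genes tested, 6.51% rose and 5.75% fell. The median log2 fold change of the 9 genes was -0.06, against 0.0006 over all genes tested. Marco, with 2 counts in all, was not tested. Since the genes were proposed with results of these data known, the count is a description.

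**Figure D1:**
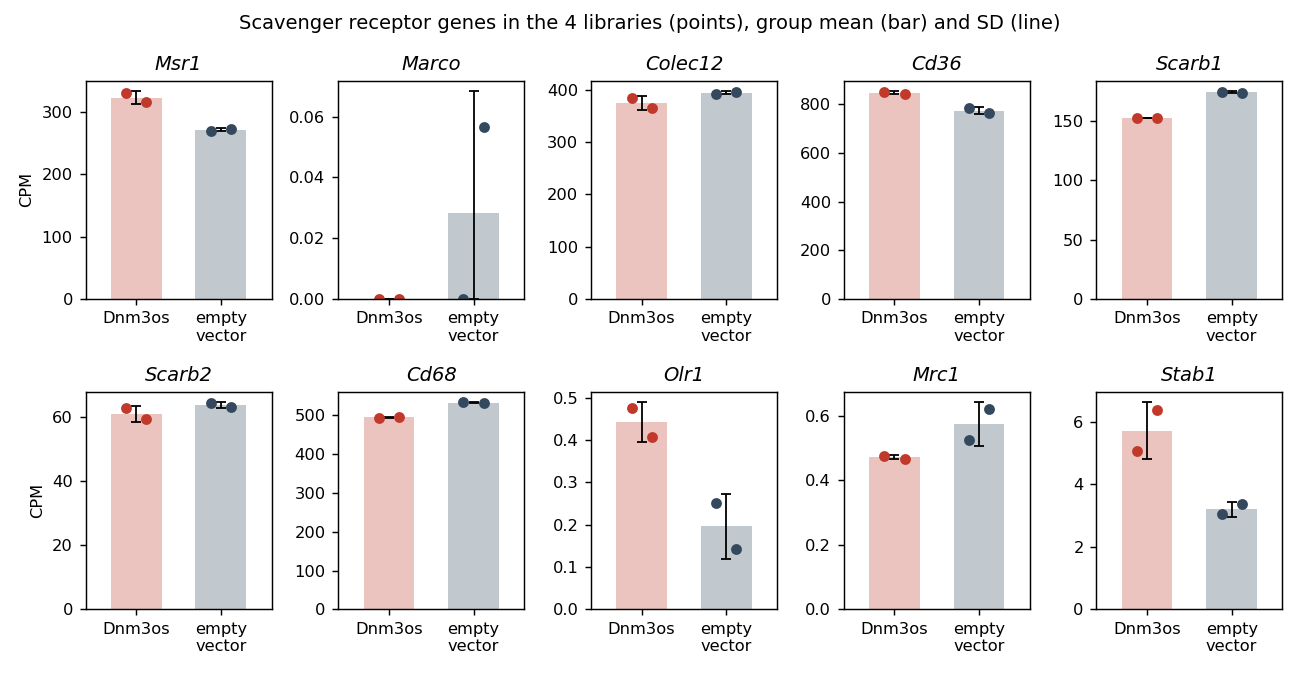
Levels in CPM (y axis, from 0, a scale for each gene) in the Dnm3os and the empty vector libraries: points are libraries, bars are group means and lines are SD (n = 2). Msr1, Cd36 and Stab1 lie higher and Scarb1 and Cd68 lower in the Dnm3os libraries, and Marco had counts in 1 empty vector library alone.

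Msr1 had the smallest adjusted p of the 9 genes tested. This class A member, the trimeric receptor for modified LDL and bacterial surfaces, had 9722 and 10827 counts in the Dnm3os libraries, against 10765 and 9658 in the deeper empty vector libraries. Scaled to depth this was 330.3 and 315.7 CPM in the Dnm3os libraries, against 269.9 and 273.3 CPM in the empty vector libraries. Both Dnm3os libraries lay above both empty vector libraries, by more than the spread within either group. The means were 323.0 ± 10.3 CPM in the Dnm3os and 271.6 ± 2.41 CPM in the empty vector libraries (SD, n = 2 each), a log2 fold change of 0.25 ± 0.03 (SE; 1.19-fold; adjusted p = 5.59e-06 by edgeR). In bulk RNA, a change in the RNA per cell cannot be told apart from a change in the share of cells that make it.

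Msr1 has a pair of RefSeq transcripts in the files, of 3636 and 1424 bases in GENCODE M21, whose counts overlap because they share exons. The shorter one, NM_001113326, held 74.2 and 73.9% of the count of the longer one in the Dnm3os libraries, against 74.9 and 75.6% in the empty vector libraries. Each transcript by itself rose, with the shorter one at a log2 fold change of 0.23 ± 0.03 (adjusted p = 3.1e-05 by edgeR).

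Colec12, a class A receptor with a collagen-like stalk and a C-type lectin domain, had 383.8 and 365.8 CPM in the Dnm3os libraries, against 392.3 and 396.4 CPM in the empty vector libraries. The groups did not overlap, but the gap was small beside the spread of the Dnm3os libraries. Its log2 fold change was -0.07 ± 0.03 with a 95% interval from -0.14 to -0.01, and it did not pass the threshold (adjusted p = 0.154 by edgeR). It was -0.11 without Dnm3os library 1 and -0.04 without Dnm3os library 2. Marco, the class A receptor of inflammatory macrophages that binds unopsonised particles, had 0 and 0 counts in the Dnm3os libraries, against 0 and 2 in the empty vector libraries. At this depth its presence in the Dnm3os group was not detectable beyond a limit of 3 counts. That limit does not apply to the empty vector group, which held counts, and no fold is given.

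The class B genes split. Cd36, which binds oxidised LDL and long-chain fatty acids, had 851.6 and 844.3 CPM in the Dnm3os libraries, against 784.3 and 764.7 CPM in the empty vector libraries. Its raw counts were 25068 and 28953 in the Dnm3os libraries, against 31283 and 27024 in the empty vector libraries. The groups stood well apart, at means of 847.9 ± 5.18 CPM in the Dnm3os and 774.5 ± 13.9 CPM in the empty vector libraries. The log2 fold change was 0.13 ± 0.03 (1.095-fold; adjusted p = 0.00122 by edgeR), and without Dnm3os library 1 the adjusted p was 0.0489 by edgeR. The 5 RefSeq transcripts of Cd36 held nearly the same reads: each of the other 4 had between 97.7 and 98.0% of the kept transcript's count in every library, and each gave a log2 fold change of 0.13.

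Scarb1, the HDL receptor that takes up cholesteryl esters selectively, had 152.5 and 152.7 CPM in the Dnm3os libraries, against 174.9 and 174.0 CPM in the empty vector libraries. Libraries of a group differed by less than 1 CPM, far less than the gap between the groups. The log2 fold change was -0.19 ± 0.03 (adjusted p = 0.000105 by edgeR), so that the level fell by 12.5% of that in empty vector cells. It passed under all 16 alternatives computed for it, with log2 fold changes from -0.20 to -0.19. The transcripts NM_001205082 and NM_001205083, which share most of its reads, gave -0.19 and -0.20 and fell too. Scarb2, the lysosomal membrane protein that delivers glucocerebrosidase to lysosomes, had 62.7 and 59.2 CPM in the Dnm3os libraries, against 64.2 and 62.8 CPM in the empty vector libraries. The nearest libraries of the groups were 62.7 and 62.8 CPM, so the groups nearly met. Its log2 fold change of -0.06 ± 0.04, with a 95% interval from -0.15 to 0.03, did not pass the threshold (adjusted p = 0.456 by edgeR). It was -0.10 without Dnm3os library 1 and -0.02 without Dnm3os library 2.

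Cd68, a mucin-like glycoprotein of late endosomes and lysosomes used as a macrophage marker, had 493.1 and 495.5 CPM in the Dnm3os libraries, against 533.4 and 531.3 CPM in the empty vector libraries. The groups did not overlap, and each was tight. The log2 fold change was -0.11 ± 0.03 (adjusted p = 0.0124 by edgeR), a fall of 0.11 that stayed the same in size but lost its call without Dnm3os library 1 (adjusted p = 0.115), without Dnm3os library 2 (0.0953) or without empty vector library 1 (0.0639). Its second transcript in the files, NR_110993, held 61.2 and 61.0% of the kept count in the Dnm3os libraries, against 60.8 and 61.2% in the empty vector libraries, and also fell (-0.10; adjusted p = 0.0245 by edgeR).

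The lectin-type receptors were near the limit of detection. Olr1, the lectin-like receptor for oxidised LDL best known from endothelium, had 14 and 14 counts in the Dnm3os libraries, against 10 and 5 in the empty vector libraries. Its counts were higher in both Dnm3os libraries, and it passed the filter through that group alone. The log2 fold change was 1.13 ± 0.49 with a 95% interval from 0.10 to 2.16, and it did not pass the threshold (adjusted p = 0.164 by edgeR). Mrc1, the macrophage mannose receptor and a marker of alternative activation, had 14 and 16 counts in the Dnm3os libraries, against 21 and 22 in the empty vector libraries. Scaled to depth the groups were 0.476 and 0.467 CPM in the Dnm3os libraries, against 0.526 and 0.623 CPM in the empty vector libraries. They did not overlap, yet the log2 fold change was -0.28 ± 0.37 and the interval ran from -1.05 to 0.49 (adjusted p = 0.735 by edgeR). Dropping empty vector library 1 gave -0.405 and dropping library 2 of that group gave -0.16.

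Stab1, a large class H receptor of tissue macrophages and sinusoidal endothelium that clears modified lipoproteins and matrix proteins, showed the largest fold among the 5 called members. It had 149 and 218 counts in the Dnm3os libraries, against 121 and 119 in the empty vector libraries, or 5.06 and 6.36 CPM in the Dnm3os libraries and 3.03 and 3.37 CPM in the empty vector libraries. Both Dnm3os libraries were higher, but they differed from each other by more than the empty vector libraries did. The log2 fold change was 0.84 ± 0.14 (1.80-fold; 95% interval from 1.465- to 2.201-fold; adjusted p = 0.000192 by edgeR). Without Dnm3os library 1 it was 0.99 and without Dnm3os library 2 it was 0.66, and it passed with each library left out in turn. Exons of Stab1 overlap those of Nt5dc2 on the opposite strand in GENCODE M21, and the strand setting of the counts is not given in the sources used here. Nt5dc2 had 14.9 and 14.8 CPM in the Dnm3os libraries, against 13.7 and 15.4 CPM in the empty vector libraries (0.03 ± 0.08; adjusted p = 0.89 by edgeR).

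For all 9 tested genes the Dnm3os and empty vector CPM lay apart without overlap, which was so for 51.2% of all genes tested. The 9 include Olr1, which passed the filter through the Dnm3os group alone, and Scarb2, whose groups nearly met. Against the other genes called, the differences of the receptors were mostly small. Of the called genes, 96.7% had a larger absolute log2 fold change than Cd68, 87.1% a larger one than Cd36, 65.3% than Scarb1, 52.9% than Msr1 and 16.7% than Stab1. Of all genes tested, 39.1% had a larger one than Cd68, 32.3% than Cd36, 21.5% than Scarb1, 16.2% than Msr1 and 3.0% than Stab1. Ratios of counts within a library do not depend on library scaling. Each ratio below sets a gene called higher over one called lower, so its direction was fixed by that choice and it adds no support to the calls. The ratio of Msr1 to Scarb1 counts was 2.17 and 2.07 in the Dnm3os libraries, against 1.54 and 1.57 in the empty vector libraries. The ratio of Cd36 to Cd68 counts was 1.73 and 1.70 in the Dnm3os libraries, against 1.47 and 1.44 in the empty vector libraries. The ratio of Cd36 to Scarb1 was 5.59 and 5.53 in the Dnm3os libraries, against 4.48 and 4.39 in the empty vector libraries, and that of Msr1 to Cd68 was 0.670 and 0.637 in the Dnm3os libraries, against 0.506 and 0.514 in the empty vector libraries. No test is given, and with 2 libraries a group an exact permutation test cannot go below p = 0.333.

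**Figure D2:**
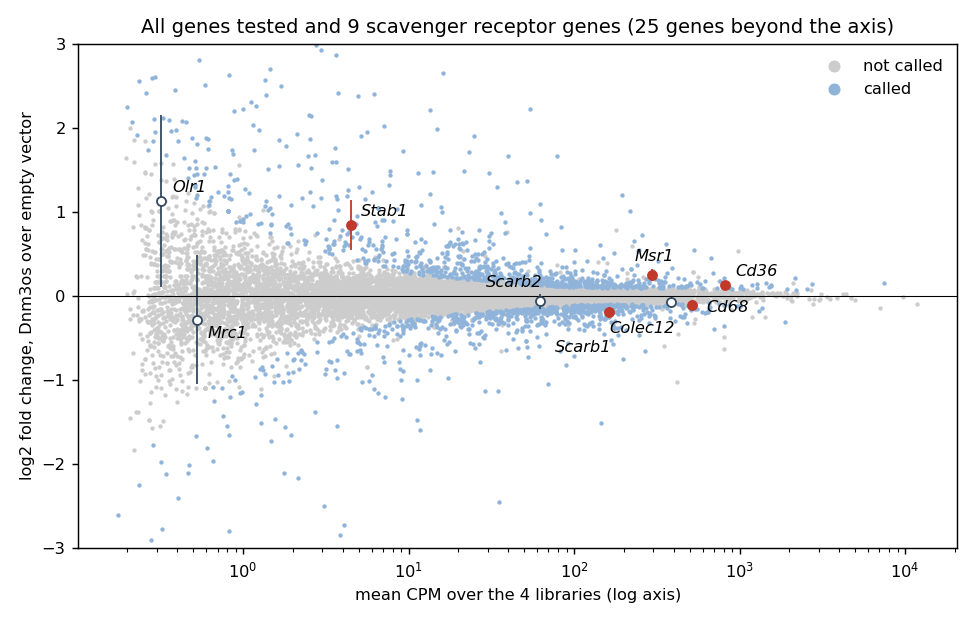
Log2 fold change, Dnm3os over empty vector (y axis), against mean CPM (x axis, log) for all genes tested, pale blue where called. Scavenger receptor genes are drawn with 95% intervals, filled red where called (Msr1, Cd36, Stab1, Scarb1 and Cd68) and open where not; 25 genes lie beyond the axis limit of 3.

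Promoter sequences are shown for Stab1 and Cd68, called genes of which one rose and the other fell. Each is 250 bases before the start site in GRCm38.p6, from RefSeq, on the minus strand: chr14:31168642-31168891 for Stab1 and chr11:69666171-69666420 for Cd68. Capitals mark matches on either strand to GAGGAA, the core bound by the macrophage factor PU.1, or to TGANTCA, the AP-1 site, and no match overlaps another.
Stab1: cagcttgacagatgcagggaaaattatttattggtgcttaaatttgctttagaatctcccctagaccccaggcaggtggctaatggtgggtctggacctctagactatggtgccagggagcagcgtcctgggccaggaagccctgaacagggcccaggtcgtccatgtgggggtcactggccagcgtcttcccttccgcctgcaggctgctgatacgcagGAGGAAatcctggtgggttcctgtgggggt
Cd68: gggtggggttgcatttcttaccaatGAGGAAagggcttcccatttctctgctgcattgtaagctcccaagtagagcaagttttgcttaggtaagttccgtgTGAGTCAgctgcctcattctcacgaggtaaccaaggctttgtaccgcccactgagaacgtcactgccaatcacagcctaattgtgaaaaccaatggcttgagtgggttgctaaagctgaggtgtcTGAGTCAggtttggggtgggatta
Stab1 held GAGGAA from 30 to 25 bases before the start, and Cd68 held GAGGAA from 225 to 220 and TGANTCA from 149 to 143 and from 24 to 18 bases before it. Of 6 members searched, 5 held GAGGAA (Marco, Stab1, Olr1, Cd68 and Mrc1, not Scarb2) and 2 held TGANTCA (Olr1 and Cd68), against 23.3% and 6.75% of 32851 promoters of the same length. The first bases after the RefSeq start of Cd68 were in no GENCODE M21 transcript of the gene, so distances there depend on the start used. A match is a description of letters in a window, and a member that rose (Stab1), one that fell (Cd68) and one with almost no counts (Marco) each held one. Msr1, Scarb1 and Colec12 were not among the promoters used, and that of Cd36 starts at another transcript.

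Per transcript length, the 10 genes stood in the same order in both groups except for Mrc1 and Olr1. In RPKM, the CPM per kilobase of GENCODE M21 transcript, Cd68 was at 401.9 ± 1.36 in the Dnm3os and 432.8 ± 1.19 in the empty vector libraries (SD, n = 2 each). Cd36 was at 313.1 ± 1.91 in the Dnm3os and 286.0 ± 5.12 in the empty vector libraries. Over all libraries 98.3% of the genes tested had a lower RPKM than Cd68 and 97.7% a lower one than Cd36. Msr1 came next, at 88.8 ± 2.83 RPKM in the Dnm3os and 74.7 ± 0.662 in the empty vector libraries. Scarb1 was at 60.5 ± 0.0777 RPKM in the Dnm3os and 69.2 ± 0.244 in the empty vector libraries. Below it lay Colec12 (46.7 ± 1.59 in the Dnm3os and 49.1 ± 0.362 in the empty vector libraries) and Scarb2 (13.0 ± 0.524 in the Dnm3os and 13.5 ± 0.208 in the empty vector libraries). Stab1 was at 0.714 ± 0.114 RPKM in the Dnm3os and 0.400 ± 0.0295 in the empty vector libraries, and 10.6% of the genes tested had a lower RPKM. Mrc1 and Olr1, at means of 0.0973 and 0.0893 RPKM over the libraries, overlapped in their ranges over the 4 libraries. No other neighbours did with the kept transcripts, on which this order rests. If the length of the shorter Msr1 transcript is used with its own count, Msr1 was at 172.1 and 163.9 RPKM in the Dnm3os libraries, against 142.0 and 145.1 in the empty vector libraries. By its transcript NR_110993, Cd68 was at 245.3 and 245.9 RPKM in the Dnm3os libraries, against 263.6 and 264.4 in the empty vector libraries. That was below the kept Cd36 transcript in every library. By its transcript NM_001205083, Scarb1 was at 47.75 and 48.08 RPKM in the Dnm3os libraries, against 54.98 and 55.28 in the empty vector libraries. This range overlapped that of Colec12. Cd68 and Cd36 together made up 77.0 and 77.6% of the summed RPKM of the 10 genes in the Dnm3os libraries, against 77.8 and 77.5% in the empty vector libraries, and these shares overlapped.

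**Figure D3:**
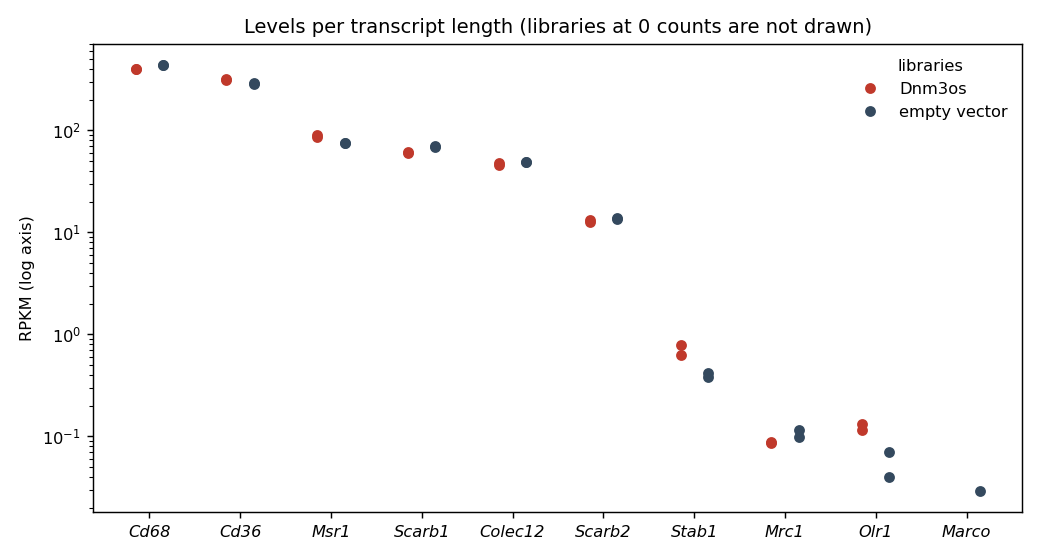
RPKM (y axis, log) of each gene in each library (points), ordered by the mean over the 4 libraries. Cd68 and Cd36 lie at 282 RPKM or more, Scarb2 between 12.6 and 13.7 RPKM, and Stab1, Mrc1, Olr1 and Marco below 1 RPKM in every library.

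Of 15 further scavenger receptors of the same nomenclature, 5 passed the filter on low counts: 2 rose, 1 fell and 2 did not pass (median log2 fold change 0.13). Clec7a, the beta-glucan receptor dectin, had 29.6 and 26.5 CPM in the Dnm3os libraries, against 19.6 and 20.7 CPM in the empty vector libraries (0.48 ± 0.07; adjusted p = 2.87e-05 by edgeR). Both Dnm3os libraries were higher, and the gene was called under all 14 alternatives computed for it. Cd44, the hyaluronan receptor, had 420.7 and 406.8 CPM in the Dnm3os libraries, against 384.2 and 370.4 CPM in the empty vector libraries (0.13 ± 0.03; adjusted p = 0.00592 by edgeR), a call lost without Dnm3os library 1 or empty vector library 2. Cxcl16, a chemokine whose membrane form binds oxidised LDL, had 29.6 and 29.8 CPM in the Dnm3os libraries, against 34.2 and 34.0 CPM in the empty vector libraries (-0.20 ± 0.06; adjusted p = 0.0228 by edgeR). The call did not hold when any 1 of the 4 libraries was dropped, by DESeq2 or with isoforms summed.

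Lrp1, the large endocytic receptor of apolipoprotein E and protease complexes, had 478.8 and 492.5 CPM in the Dnm3os libraries, against 545.4 and 623.8 CPM in the empty vector libraries. The groups did not overlap, but the empty vector libraries differed widely from each other and the log2 fold change of -0.27 ± 0.08 did not pass (adjusted p = 0.179 by edgeR). It passed without empty vector library 1 (-0.37) or library 2 (-0.17), with isoforms summed and with a replicate block. Cd163, the haemoglobin receptor, had 11 and 10 counts in the Dnm3os libraries, against 6 and 14 in the empty vector libraries, and the groups overlapped (0.30 ± 0.53; adjusted p = 0.811 by edgeR). Of the 10 that were not tested, Scara3, Scara5, Asgr1, Megf10 and Cd163l1 had 0 counts in all libraries, and Scarf1, Scarf2, Stab2, Ager and Lrp2 had at most 9 in any.

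Among 16 transcription factors known to act on scavenger receptor genes, 15 were tested: 3 rose, 3 fell and 9 did not pass (median 0.09). Rxra, the partner of the PPAR and LXR nuclear receptors, had 9.17 and 9.74 CPM in the Dnm3os libraries, against 17.1 and 17.9 CPM in the empty vector libraries (-0.88 ± 0.08; adjusted p = 4.83e-08 by edgeR). The groups were far apart. Ppard, a lipid-sensing receptor, had 11.99 and 11.23 CPM in the Dnm3os libraries, against 8.90 and 7.07 CPM in the empty vector libraries (0.53 ± 0.10; adjusted p = 0.00122 by edgeR). Cebpb (0.57 ± 0.11, adjusted p = 0.0396 by edgeR) and Klf4 (0.30 ± 0.09, adjusted p = 0.0333 by edgeR) rose too. Both were named after their values were seen. Mitf, a regulator of lysosomal genes, fell (-0.18 ± 0.04; adjusted p = 0.00686 by edgeR), a call lost by DESeq2 (-0.18) and without Dnm3os library 1 (-0.16). Nfe2l2, the antioxidant factor, fell (-0.13 ± 0.03; adjusted p = 0.0126 by edgeR), a call lost by DESeq2 (-0.13), without Dnm3os library 1 (-0.15) or 2 (-0.11) and without empty vector library 2 (-0.095). Pparg, the factor that induces Cd36 in foam cells, had only 2 and 8 counts in the Dnm3os libraries, against 3 and 3 in the empty vector libraries, and was not tested. Spi1, which encodes PU.1 and like Pparg was named after its values were seen, had 283.6 and 295.3 CPM in the Dnm3os libraries, against 302.4 and 289.0 CPM in the empty vector libraries, and the groups overlapped.

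Of 15 genes for the fate of lipoprotein lipid after uptake, 14 were tested: 5 rose, 1 fell and 8 did not pass (median 0.03). Npc2, the lysosomal sterol carrier, had 633 and 623 CPM in the Dnm3os libraries, against 429 and 429 CPM in the empty vector libraries. Lpl, the lipoprotein lipase, had 2348 and 2331 CPM in the Dnm3os libraries, against 2031 and 1989 CPM in the empty vector libraries. Fabp4, a fatty acid carrier, had 7.07 and 7.17 CPM in the Dnm3os libraries, against 2.48 and 3.34 CPM in the empty vector libraries. In these and in Abca1, a cholesterol exporter (23.6 and 23.8 CPM in the Dnm3os, 17.98 and 18.76 CPM in the empty vector libraries), the Dnm3os libraries lay above the empty vector libraries, with adjusted p from 1.57e-12 to 0.000417 by edgeR. Abcg1, another cholesterol exporter and the 1 gene of the list that fell, had 69.40 and 76.05 CPM in the Dnm3os libraries, against 79.95 and 88.82 CPM in the empty vector libraries (-0.21 ± 0.06; adjusted p = 0.0289 by edgeR). Abcg1 was named after its values were seen, as were the next pair. Soat1, which esterifies cholesterol for storage, and Plin2, which coats lipid droplets, did not pass (-0.08 ± 0.03 and -0.08 ± 0.05).

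Of 18 receptor partners, kinases and coat proteins of uptake, 16 were tested: 3 rose, 4 fell and 9 did not pass (median -0.02). Src, a kinase of the family that signals from Cd36, had 19.7 and 19.8 CPM in the Dnm3os libraries, against 26.4 and 27.4 CPM in the empty vector libraries (-0.45 ± 0.06; adjusted p = 2.66e-05 by edgeR). Lyn and Fyn, kinases of the same family, did not pass (0.09 ± 0.03 and 0.02 ± 0.06) and were named after their values were seen. The tetraspanin Cd9, found with Cd36 in the macrophage membrane, had 594 and 606 CPM in the Dnm3os libraries, against 674 and 693 CPM in the empty vector libraries (-0.19 ± 0.03; adjusted p = 3.81e-05 by edgeR). Cltc, the clathrin heavy chain, fell (-0.12 ± 0.03; adjusted p = 0.00728 by edgeR), a call lost without Dnm3os library 2 or empty vector library 2. Tlr2, a signalling partner of Cd36, rose (0.16 ± 0.03; adjusted p = 0.00243 by edgeR). Pdzk1, the adaptor that holds Scarb1 at the membrane in liver, was at 5.50 and 5.31 CPM in the Dnm3os libraries, against 5.54 and 5.26 CPM in the empty vector libraries, with overlapping groups, and was named after its values were seen.

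Marker levels moved beside these results. Among the macrophage markers 4 rose, 1 fell and 4 did not pass, and Lyz2, lysozyme, made up most of their summed CPM. Itgam, an integrin chain, had 294.2 and 286.2 CPM in the Dnm3os libraries, against 137.5 and 151.3 CPM in the empty vector libraries (1.01 ± 0.04; adjusted p = 9.46e-12 by edgeR). Csf1r, Fcgr1 and Lyz2 rose by 0.27, 0.75 and 0.15 on the log2 scale. Adgre1, an adhesion receptor widely used as a macrophage marker, had 75.4 and 75.7 CPM in the Dnm3os libraries, against 92.6 and 94.0 CPM in the empty vector libraries (-0.30 ± 0.04; adjusted p = 3.37e-06 by edgeR). RAW 264.7 cells can form osteoclasts, and of 6 osteoclast markers 5 were tested, of which Ctsk, Ocstamp and Dcstamp fell, Acp5 rose and Itgb3 did not pass, while Calcr had 0 counts in all libraries. These 6 summed to 168.4 and 163.7 CPM in the Dnm3os libraries, against 313.0 and 327.9 CPM in the empty vector libraries. Most of this gap was Ctsk, at 75.89 and 74.33 CPM in the Dnm3os libraries, against 207.36 and 220.85 CPM in the empty vector libraries. The 6 dendritic cell markers summed to 17.6 and 18.5 CPM in the Dnm3os libraries, against 12.7 and 13.3 CPM in the empty vector libraries; of these Itgax rose, Xcr1 did not pass, and Flt3 and Cd209a had 0 counts in all libraries. The 5 endothelial markers bear on Stab1 and Olr1. They summed to 1.02 and 0.904 CPM in the Dnm3os libraries, against 0.326 and 0.453 CPM in the empty vector libraries. Most of each sum was Kdr, at 0.713 and 0.642 CPM in the Dnm3os libraries, against 0.201 and 0.311 CPM in the empty vector libraries. Kdr was called higher at 21 and 22 counts in the Dnm3os libraries, against 8 and 11 in the empty vector libraries. It had passed the filter through the Dnm3os group. Cdh5 had 6 and 5 counts in the Dnm3os libraries, against 3 and 2 in the empty vector libraries. Tek had 3 and 4 counts in the Dnm3os libraries, against 1 and 2 in the empty vector libraries, and neither was tested. Tie1 had 0 counts in all libraries, and Pecam1 had at most 1 count. The part of these shifts in the receptor results was not tested.

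**Figure D4:**
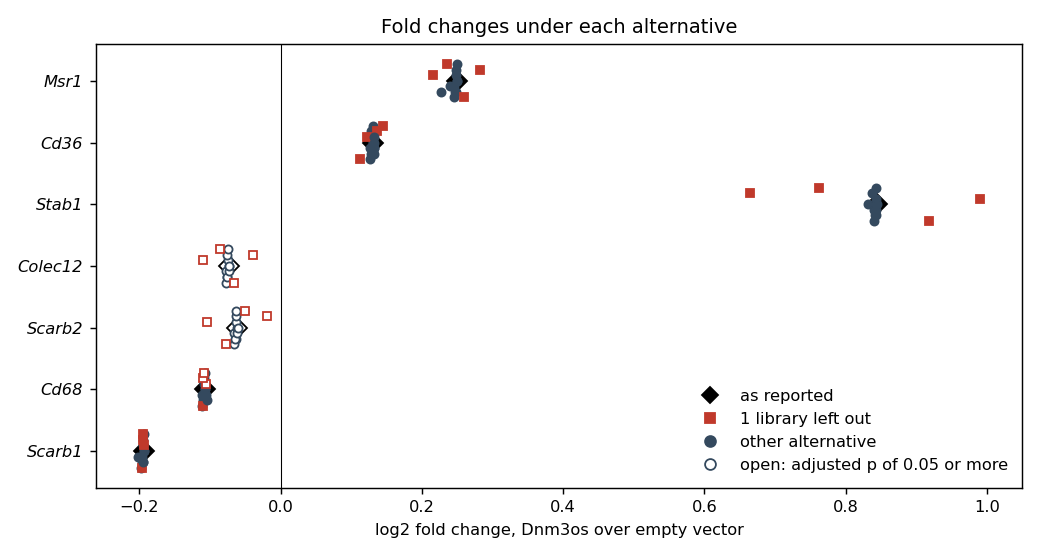
Log2 fold change, Dnm3os over empty vector (x axis), of the 7 receptor genes with more than 100 counts in every library, as reported (diamond), with 1 library left out (squares) and under the other alternatives (circles), open where the adjusted p was 0.05 or more. No gene changed direction; Stab1 ranged from 0.66 to 0.99, and Cd68 lost its call in 3 of the 4 settings with a library left out.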

How the data were processed

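Poly(A) RNA was prepared by TruSeq and read on an Illumina HiSeq, per the labels' protocols. The submitters' processing notes name TopHat, Bowtie2, DESeq2 and the build mm9, with no versions or roles. The sources used here do not name the counter, annotation version or strand setting. Per the file headers, each file gives raw read counts for 35786 RefSeq transcripts, and a deposited normalized signal, which equals the count times 1 constant per library (0.8653 to 1.1723) and served only for those constants.

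Transcripts were named from RefSeq (35499) and GENCODE M21 (178) tables; 109 stayed unnamed (0.246 to 0.276% of counts) and kept their IDs, except the 45S ribosomal RNA (0.044 to 0.081%), which was left out. Of 24422 named genes 6123 had several transcripts, and the one with the highest mean count was kept, which left out 39.4% of all counts. Transcripts of a gene can share reads, as those of Cd36 did. The counts left out were thus in part repeats, and summing isoforms counts such reads more than once. Among genes with a mean of 100 or more counts, no member had the same counts as another gene; Marco, Olr1 and Mrc1 lay below that mean. Genes were filtered (filterByExpr, minimum count of 10), scaled by TMM (factors 0.997 to 1.003), then fitted in R 4.3.3 by glmQLFit (robust) and glmQLFTest of edgeR 4.0.16. Dividing the absolute log2 fold change by the root of F gave the SE, and 95% intervals use the fit's degrees of freedom. The script was tested on simulated data. Limits of 3 counts cover counting error only.

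The members, lists, tests and alternatives were chosen with earlier results of these data known. The rule for named genes took all members, Dnm3os, the tested further scavenger receptors, and up to 4 called genes of each other list with the smallest adjusted p. Alternatives were DESeq2 1.42.0, limma-voom (limma 3.58.1), 4 other scalings, 2 other filters, isoforms summed, a replicate block, each library left out and, chosen after the data were seen, other transcripts of a member. Another marker list is not reported here.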

Additional observations from a re-analysis of the deposited data

How the results depend on the processing

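None of the 9 tested members changed direction under any alternative computed for it. The calls of Msr1, Cd36, Stab1 and Scarb1 passed under all of theirs, that of Cd68 under 12 of 15. With a library left out, Cd68 stayed at -0.11, the members called lower numbered 1 to 2 and the members called higher 3. DESeq2 called 404 genes higher and 362 lower over all genes, and with a library left out the fit called 465 to 808 higher and 396 to 786 lower, against 858 and 758. Such a fit assumes that the lone library of a group varies like the others. Cd163, not called in any setting, turned to -0.27 without empty vector library 1 and stood at 1.12 without library 2; the cause was not tested. Olr1, Mrc1, Cd163 and Cd207 had no value under a filter at 1 CPM in 2 libraries, and Marco had none in the fit as reported. No scaling moved the median of all genes by over 0.1 on the log2 scale. Same-numbered libraries did not deviate together (correlation -0.0634 over genes), and nothing in the labels pairs them; with a replicate block 868 genes were higher and 782 lower, and the same 5 members were called. Depth limits Marco, Olr1 and Mrc1, which had at most 22 counts in a library.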

Other observations

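The mannose receptor family and other endocytic lectins, which bind sugars on microbes and glycoproteins, held 10 genes, of which 5 passed the filter on low counts. Clec4n, Clec4e, Clec4d and Cd207 were called higher, Cd207 having passed the filter through the Dnm3os group alone, and Clec10a was not called. The median log2 fold change of these 5 was 0.22, against 0.0006 over all genes tested, of which 6.51% rose and 5.75% fell. Clec4n, a fungal receptor, had 10.8 and 12.1 CPM in the Dnm3os libraries, against 2.83 and 2.80 CPM in the empty vector libraries (2.03 ± 0.12; adjusted p = 1.37e-11 by edgeR). Clec4e, which senses mycobacterial glycolipid, had 76.2 and 80.9 CPM in the Dnm3os libraries, against 65.8 and 69.4 CPM in the empty vector libraries (0.22 ± 0.04; adjusted p = 0.00103 by edgeR), a call lost without Dnm3os library 2. Cd207, or langerin, had 18 and 15 counts in the Dnm3os libraries, against 4 and 8 in the empty vector libraries. Both empty vector values lay under the filter's 0.287 CPM, so it was tested only because it was high in the Dnm3os group. It lost its call in 5 of 13 alternatives (without either Dnm3os library or empty vector library 1, by DESeq2 and with isoforms summed). Clec4d rose by 0.10 on the log2 scale (adjusted p = 0.0487 by edgeR), a call that 10 of 14 alternatives did not make, with adjusted p over the 14 reaching 0.434. Clec10a, a galactose-type lectin named after its values were seen, stood at -0.41 ± 0.23. The mannose receptor relatives Mrc2 and Pla2r1 had at most 6 counts in any library, and Ly75 had 0 in all. Clec4n, the largest of these differences, stood at 1.94 to 2.10 under all 14 of its alternatives.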
